A study of Mus musculus with 9 samples.

Results

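Klf2 and S1pr1, which are tied to thymic egress, were followed with members of their gene families across 3 levels of a GFP reporter in CD4 single-positive thymocytes. The 6 genes were those of the transcription factors Klf2, Klf3 and Klf6 and the sphingosine-1-phosphate (S1P) receptors S1pr1, S1pr2 and S1pr4. They were picked by gene symbol, with earlier results of these data known, and make up 6 of the 41978 genes in the table. All 6 reached a transcript level of 1 TPM (reads scaled to gene length and library size) in 3 or more samples, the filter applied before testing. The cells were semi-mature SP4 thymocytes of Nur77-eGFP BAC Tg mice, whose transgene places eGFP under the regulatory sequence of Nr4a1 (Nur77), so that GFP reports recent T cell receptor (TCR) signalling. Live CD25- CD24+ CD69+ CD4+ CD8a- cells were split by GFP alone: the lowest 10% (GFPlo), a middle 10% (GFPmed) and the highest 10% (GFPhi), with 3 biological replicates per group and 10000 cells per sample. Every group carried the same transgene, no agent was given, and mice of the study were on the C57BL/6 background, of both sexes, with no age listed for single samples. The groups are slices of 1 GFP distribution, so they are levels of the reporter and not sorted lineages.

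A T cell leaves the thymus by following S1P, a lipid that is abundant in blood and lymph and scarce inside the tissue, and S1PR1 is the receptor that senses it for exit. KLF2 is the transcription factor best known for switching on S1pr1 late in single-positive maturation. CD69, which appears after TCR signalling, binds S1PR1 and pulls it from the cell surface, so transcript levels of S1pr1 do not give the amount of receptor on the cell.

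Klf2 lies at chr8:72319033-72321656 on the plus strand of GRCm38, Klf3 at chr5:64803388-64832901 (plus), Klf6 at chr13:5861482-5870394 (plus), S1pr1 at chr3:115710433-115715072 (minus), S1pr2 at chr9:20962361-20976781 (minus) and S1pr4 at chr10:81497747-81500132 (minus). All are protein-coding, and the values below are reads over the whole gene, with no resolution of isoforms. S1pr4 is a single exon in the annotation. Klf3 overlaps Gm20033 on the opposite strand and C230096K16Rik on its own strand, with up to 404 of its 11243 exonic bases shared. Reads in shared bases cannot be given to a single gene, because the library kit does not keep strand and C230096K16Rik lies on the strand of Klf3.

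RefSeq promoter windows (GRCm38.p6, 250 bases before to 50 bases after the start site) were at hand for 5 of the 6 genes, with S1pr1 not among them. The bases upstream of the annotated gene are shown for the 3 other genes that rose with GFP and for S1pr2, which had its lowest levels in GFPhi. Capitals mark CACCC, the core of the KLF recognition element, on either strand (GGGTG where it lies on the opposite strand), and in Klf2 a match to the MEF2 consensus.

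Klf2 promoter, chr8:72318812-72319032, plus strand: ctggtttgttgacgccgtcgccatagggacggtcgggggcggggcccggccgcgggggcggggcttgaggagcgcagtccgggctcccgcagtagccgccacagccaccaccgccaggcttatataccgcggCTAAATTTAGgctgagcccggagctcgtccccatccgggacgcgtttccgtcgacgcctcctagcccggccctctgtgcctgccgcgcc

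Klf3 promoter, chr5:64803271-64803387, plus strand: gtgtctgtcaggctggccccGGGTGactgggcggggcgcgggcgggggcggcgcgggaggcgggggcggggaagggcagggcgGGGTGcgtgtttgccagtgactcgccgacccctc

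S1pr4 promoter, chr10:81500138-81500387, minus strand: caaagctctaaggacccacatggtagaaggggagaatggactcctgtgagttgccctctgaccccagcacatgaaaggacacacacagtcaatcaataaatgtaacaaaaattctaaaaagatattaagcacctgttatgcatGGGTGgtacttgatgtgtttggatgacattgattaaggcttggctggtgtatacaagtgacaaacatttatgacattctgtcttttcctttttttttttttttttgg

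S1pr2 promoter, chr9:20976794-20977043, minus strand: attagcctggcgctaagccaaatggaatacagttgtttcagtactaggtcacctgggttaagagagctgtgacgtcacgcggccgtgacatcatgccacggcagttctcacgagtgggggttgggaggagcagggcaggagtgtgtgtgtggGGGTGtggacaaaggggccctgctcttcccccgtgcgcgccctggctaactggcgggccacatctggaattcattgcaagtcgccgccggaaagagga

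In the full windows, CACCC occurred 5 times for Klf3, 1 time each for Klf2, S1pr2 and S1pr4, and not for Klf6, against 57.52% of all 32851 promoters with at least 1 match on either strand. GGGCGG, a GC box that KLF and SP factors can share and that need not overlap CACCC, occurred 6 times for Klf3, 2 times for Klf2, 1 time each for Klf6 and S1pr2, and not for S1pr4, against 35.66% of all promoters. The MEF2 match in Klf2 begins 118 bases before the start site (position -118), and 3.187% of promoters hold one. These are letter matches only. CACCC was present both in promoters of genes that rose and in that of S1pr2.

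Reads on genes ran from 7465552 to 14943774 per sample, with a median of 9426281, and the 6 genes were covered by 48 to 2828 reads in a sample. The fewest reads were those of S1pr1 in GFPlo (48 to 57), where its values are least precise. Of the transcripts behind the sort gate, Cd4 had a mean of 539 TPM over the 9 samples and Cd8a one of 13.5 TPM. The GFPhi means were 0.814-fold the GFPlo means for Cd4, 0.429-fold for Cd8a and 0.557-fold for Cd8b1. For each of these, every GFPhi sample was below every GFPlo sample. Il2ra, which encodes CD25, was at 0.606 to 0.741 TPM in GFPlo and at 8.11 to 11.2 TPM in GFPhi although all cells were sorted as CD25-. Nr4a1, the gene behind the reporter, had 187 to 251 TPM in GFPlo, 351 to 406 TPM in GFPmed and 767 to 917 TPM in GFPhi. Of 7 genes listed for the reporter and TCR signal, 5 had positive log2 fold changes from GFPlo to GFPhi. Egr1 and Egr2, of the same list, went the other way. Their GFPhi means were 0.589-fold and 0.535-fold the GFPlo means, with every GFPhi sample below every GFPlo sample. Replicate 1 of each group had the most reads on olfactory and vomeronasal receptor genes, which thymocytes are not known to use, at 2153 to 4634 RPM (reads scaled to library size alone) over all samples, and results that change without the 3 samples of replicate 1 are named below.

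S1pr1, the receptor for exit, was the gene of the 6 that differed most. Its level was 9.39, 6.35 and 7.20 TPM in the GFPlo samples, 23.6, 18.2 and 18.9 TPM in GFPmed and 231, 223 and 212 TPM in GFPhi. Each group lay wholly above the one before it. The mean of GFPhi was 29.0-fold that of GFPlo and 10.96-fold that of GFPmed. In limma's fit to log2(TPM + 1) over all genes, S1pr1 rose by 4.70 ± 0.15 (log2 fold change ± SE) from GFPlo to GFPhi, with a Benjamini-Hochberg adjusted p of 9.95e-06. It ranked 6 from the top of 30693 genes by fold change. Because the samples are bulk RNA, a larger share of cells that make S1pr1 and more S1pr1 RNA per cell cannot be told apart, here and for each gene below.

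S1pr4, a receptor found mainly on leukocytes, moved the same way. It was at 16.3, 18.0 and 19.9 TPM in GFPlo, 31.7, 29.7 and 33.9 TPM in GFPmed and 88.4, 109 and 84.2 TPM in GFPhi. No sample of one group overlapped another group. The mean of GFPhi was 5.19-fold that of GFPlo, and the log2 fold change was 2.31 ± 0.12 (limma, adjusted p = 9.21e-05).

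S1pr2, a receptor whose G protein coupling restrains cell migration, had the opposite order. GFPlo samples had 22.6, 23.2 and 24.5 TPM, GFPmed samples 20.2, 20.7 and 22.5 TPM and GFPhi samples 11.8, 15.6 and 12.3 TPM. The GFPhi samples were all below those of both other groups, and the GFPlo mean was 1.77-fold the GFPhi mean. Its log2 fold change from GFPlo to GFPhi was -0.79 ± 0.12, with a limma adjusted p of 0.0138. It passed the p threshold and not the fold limit of 1 on the log2 scale, so it is not counted as called.

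The remaining receptors of the family, S1pr3 and S1pr5, were near the detection limit. S1pr3 was at 0.702 TPM or less in every sample, from 0 to 15 reads, and S1pr5 at 0.503 TPM or less, from 0 to 7 reads. Neither passed the filter, so a difference in them was not detectable at this depth.

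Klf2, the factor tied to S1pr1, was the most changed of the 3 transcription factors. Its values were 77.5, 89.8 and 96.0 TPM in GFPlo, 202, 159 and 183 TPM in GFPmed and 506, 586 and 519 TPM in GFPhi. The groups did not overlap. The GFPhi mean was 6.12-fold the GFPlo mean and 2.96-fold the GFPmed mean. Klf2 rose by 2.60 ± 0.12 on the log2 scale from GFPlo to GFPhi (limma, adjusted p = 5.35e-05).

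Klf3, which often acts as a repressor at the same CACCC elements, rose less. It had 19.8, 20.1 and 19.4 TPM in GFPlo, 24.7, 26.1 and 23.1 TPM in GFPmed and 45.3, 62.1 and 55.5 TPM in GFPhi. The 3 GFPlo samples were close together, and again no groups overlapped. The GFPhi mean was 2.74-fold the GFPlo mean, with a log2 fold change of 1.40 ± 0.12 (limma, adjusted p = 0.00088).

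Klf6, a broadly expressed member of the family, had 60.7, 58.8 and 47.3 TPM in GFPlo, 50.7, 45.6 and 51.6 TPM in GFPmed and 37.1, 47.9 and 39.7 TPM in GFPhi. GFPhi replicate 2 lay above GFPlo replicate 3, so the groups overlapped. The log2 fold change from GFPlo to GFPhi was -0.41 ± 0.13, which did not pass the limma test (adjusted p = 0.177).

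**Figure D1:**
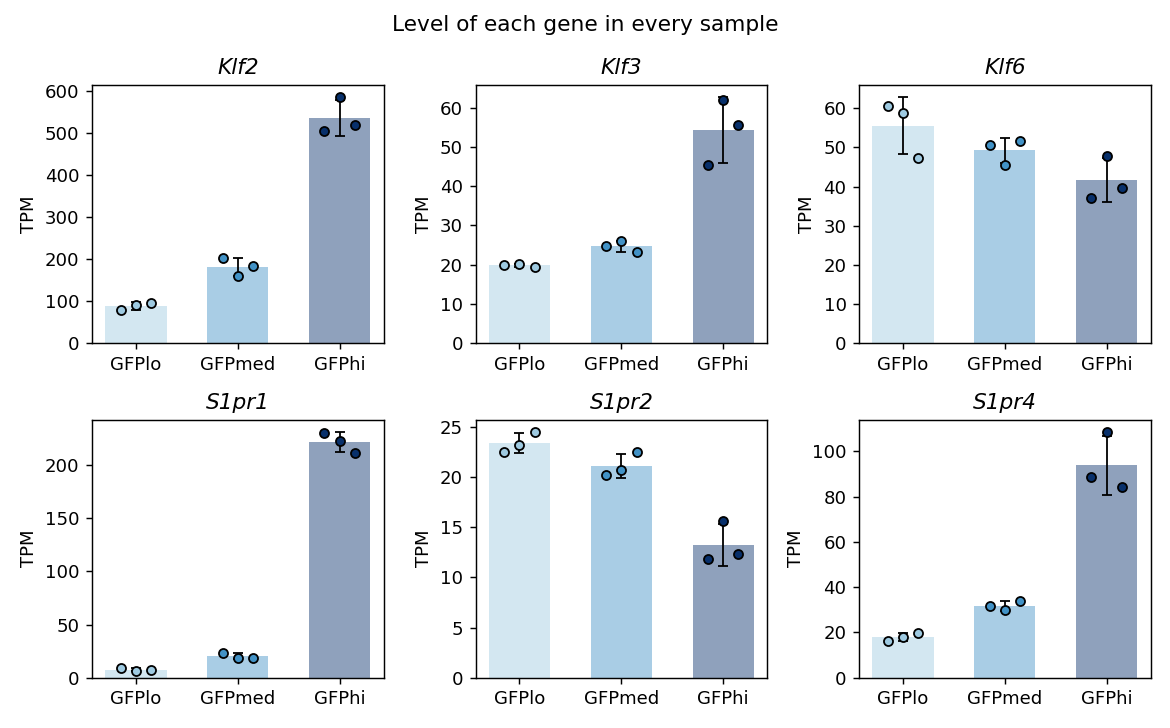
TPM of the 6 genes in each of the 9 samples. Points are samples, bars are group means from 0, and error bars are SD (n = 3). Klf2, Klf3, S1pr1 and S1pr4 step upward from GFPlo to GFPhi with no overlap of groups, S1pr2 is lowest in GFPhi, and the Klf6 groups overlap.

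Between GFPlo and GFPhi, then, 4 of the 6 genes were called higher and 0 were called lower by the thresholds used here (limma adjusted p up to 0.05, log2 fold change of 1 or more in either direction). Over all 30693 genes tested, 1.26% were called higher and 0.404% lower. All 6 had an unadjusted limma p under 0.05, with 4 higher and 2 lower. Of the 30693 genes, 2036 were higher and 2208 lower at that p. Voom on reads also called 4 of the 6 higher and 0 lower, beside 489 and 144 of 30522 genes. The GFPhi samples lay wholly above the GFPlo samples for 4 of the 6 genes and for 8.26% of all genes, and wholly below them for S1pr2 and for 9.92% of all genes. The 4 genes were called under each of the 21 alternative settings with the same fold limit, which included the scaling by median of ratios, voom on reads and every single sample left out. S1pr1 ranged from 4.59 to 4.95 over these settings, Klf2 from 2.516 to 2.698, S1pr4 from 2.20 to 2.45 and Klf3 from 1.30 to 1.52 on the log2 scale. S1pr2 kept its sign, from -0.90 to -0.70, with adjusted p from 0.0024 to 0.269.

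**Figure D2:**
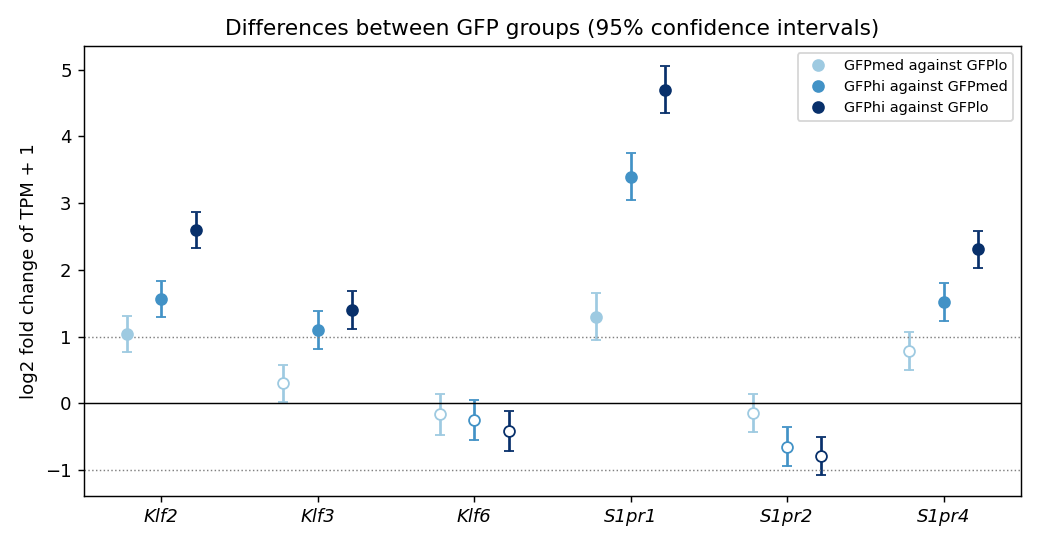
Log2 fold change of TPM + 1 for each gene in the 3 comparisons of groups. Points are limma estimates from 9 samples with 95% confidence intervals, filled where called, and dotted lines mark the fold limit of 1. S1pr1 has the largest estimate in each comparison, and the upper step (GFPhi against GFPmed) has a larger estimate than the lower step for Klf2, Klf3, S1pr1 and S1pr4.

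The lower step of GFP gave smaller estimates. From GFPlo to GFPmed, Klf2 rose by 1.04 ± 0.12 (limma, adjusted p = 0.0424) and S1pr1 by 1.30 ± 0.15 (adjusted p = 0.0435), and these were the 2 genes called of the 6. Of all genes tested, 0.0554% were called higher and 0.00326% lower. S1pr4 differed by 0.78 ± 0.12 and Klf3 by 0.30 ± 0.12, with adjusted p of 0.154 and 1. Klf6 and S1pr2 differed by -0.16 ± 0.13 and -0.14 ± 0.12. For Klf2, S1pr1, S1pr4 and Klf3 every GFPmed sample was above every GFPlo sample, and for S1pr2 every one was below. The margin for S1pr2 was narrow, with 22.51 TPM in the highest GFPmed sample and 22.55 TPM in the lowest GFPlo sample. The share of all genes whose samples separate in this step was not counted. Both calls sat close to the thresholds: that of Klf2 was lost in 15 and that of S1pr1 in 14 of 22 alternative settings. Leaving out any 1 of the 9 samples ended the call of Klf2, with log2 fold changes of 0.95 to 1.13, and leaving out any but GFPlo replicate 1 ended that of S1pr1, at 1.19 to 1.37.

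From GFPmed to GFPhi the same 4 genes were called as between GFPlo and GFPhi. S1pr1 rose by 3.40 ± 0.15 (limma, adjusted p = 0.000144), Klf2 by 1.57 ± 0.12 (adjusted p = 0.00129), S1pr4 by 1.53 ± 0.12 (adjusted p = 0.00152) and Klf3 by 1.10 ± 0.12 (adjusted p = 0.00567). Of all genes tested, 0.541% were called higher and 0.15% lower. S1pr2 differed by -0.64 ± 0.12 (adjusted p = 0.0568) and Klf6 by -0.25 ± 0.13 (adjusted p = 0.612), neither called. Without GFPhi replicate 2, the sample with the highest Klf3, its estimate was 0.998, just under the fold limit, and with median-of-ratios scaling its adjusted p was 0.105, the highest over its alternatives (from 2.05e-06). Without the 3 samples of replicate 1, Klf3 and S1pr4 were no longer called, at 1.22 and 1.56 with adjusted p of 0.0691 and 0.0793.

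The comparisons share groups, so the steps were set against each other within 1 fit by placing GFPmed against the midpoint of GFPlo and GFPhi on the log2 scale. S1pr1 had covered 27.7% of its log2 change by GFPmed, Klf2 39.8%, S1pr4 33.9% and Klf3 21.5%. Nr4a1, the gene behind the reporter, had covered 40.5% of its own change, close to Klf2, and differed from its midpoint by -0.19 ± 0.10. S1pr1 in GFPmed lay below the midpoint by -1.05 ± 0.13, with an unadjusted p of 4.99e-05 and an adjusted limma p of 0.102. None of the 6 genes was called below the midpoint, as against 0.00977% of all genes, although 5 of them had an unadjusted p under 0.05 on either side of it. Of the 30693 genes tested, 863 were above the midpoint and 679 below it at that unadjusted p. S1pr1 was called with TPM on exonic length (adjusted p = 0.034) and with voom on reads (adjusted p = 0.0278 with library totals and 0.0408 with median-of-ratios size factors), within a range of 0.0278 to 0.582 over its 20 alternatives.

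As single values, all 6 genes had an exact permutation p under 0.05 for a trend over the 3 ordered groups (two-sided). It was 0.00119, the smallest that the 1680 arrangements of 9 samples allow, for Klf2, Klf3, S1pr1, S1pr2 and S1pr4, and 0.0131 for Klf6. With median-of-ratios scaling the exact p of Klf6 became 0.0976 and that of S1pr2 0.0143. The exact trend was not run on the other genes, so the count of 6 has no share of all genes beside it.

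S1pr1 did not change by the same factor as Klf2. The ratio of S1pr1 TPM to Klf2 TPM was 0.121, 0.0707 and 0.0750 in GFPlo, 0.117, 0.115 and 0.103 in GFPmed and 0.456, 0.380 and 0.408 in GFPhi. GFPlo replicate 1 was as high as the GFPmed samples, and the GFPhi samples stood apart from all others. The log2 ratio was 2.26 higher in GFPhi than in GFPlo, or 4.79-fold, with an exact two-sided permutation p of 0.00476 for the trend over the groups. From GFPlo to GFPmed it differed by 0.37 (exact permutation p = 0.4), and from GFPmed to GFPhi by 1.89 (exact permutation p = 0.1, the smallest that 3 against 3 samples allow). Leaving out 1 sample at a time gave 2.12 to 2.51 for GFPhi against GFPlo.

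**Figure D3:**
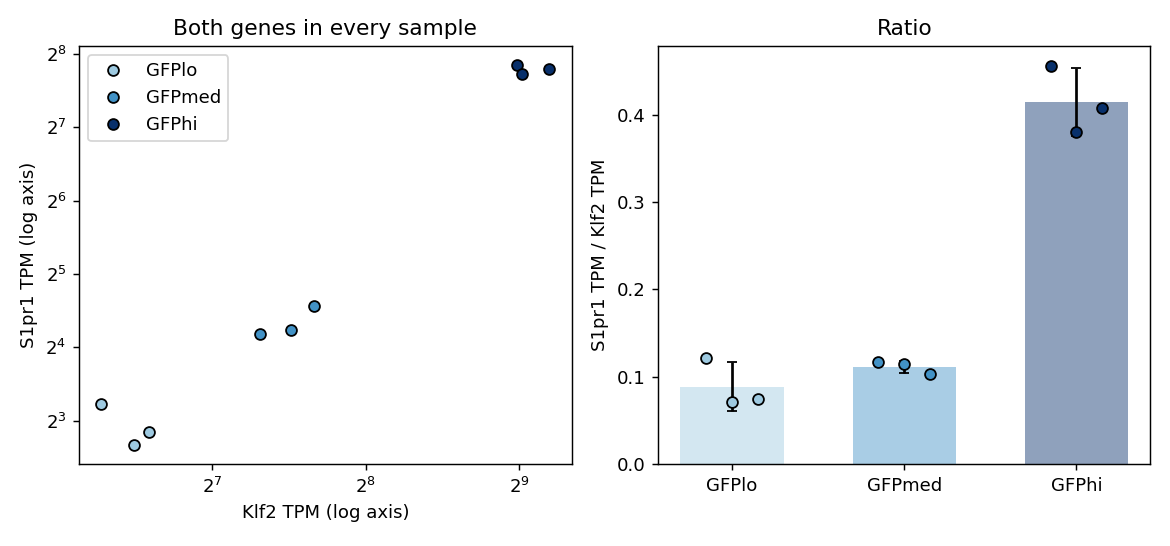
Left, S1pr1 TPM against Klf2 TPM in the 9 samples, both axes logarithmic. Right, the ratio of S1pr1 TPM to Klf2 TPM per sample, with bars for group means and error bars for SD (n = 3). The mean ratio is 0.089 in GFPlo, 0.112 in GFPmed and 0.415 in GFPhi.

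Levels of different genes can be compared only per exonic length, since the deposited TPM divides by transcript span with introns. TPM were therefore recomputed on exonic length for this purpose. On that scale Klf2 was first of the 6 in every group, at 71.3 ± 7.7, 147 ± 17 and 435 ± 29 exonic TPM (SD, n = 3) in GFPlo, GFPmed and GFPhi. S1pr1 was last in GFPlo, at 6.66 ± 1.37 exonic TPM, and behind only Klf2 in GFPhi, at 193 ± 8.7. Klf6 was next after Klf2 in GFPlo (40.4 ± 5.2) and above only S1pr2 in GFPhi (30.1 ± 3.6), where its samples overlapped those of Klf3 (36.3 ± 5.2). Neighbours whose samples also overlapped were Klf3 and S1pr2 in GFPlo, and S1pr4 with S1pr1 and S1pr1 with Klf3 in GFPmed. In the other neighbouring pairs every sample of one gene was above every sample of the next.

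The make-up of the receptor family differed between the groups. The 5 S1P receptor genes summed to 30.7 ± 1.2 exonic TPM in GFPlo, 48.1 ± 2.9 in GFPmed and 254 ± 11 in GFPhi. S1pr2 made up 40.97 ± 1.92% of the sum in GFPlo and 2.80 ± 0.36% in GFPhi, while S1pr1 made up 21.6 ± 4.0% and 75.9 ± 2.4%. S1pr4 held 33.6 ± 3.3% in GFPlo and 21.0 ± 2.1% in GFPhi, a smaller share at a higher level. In GFPmed the shares were 36.5 ± 3.6% for S1pr1, 37.8 ± 1.9% for S1pr4 and 23.7 ± 1.9% for S1pr2. Among the 17 KLF genes, Klf2 made up 23.8 ± 2.9% of the sum in GFPlo, 37.8 ± 2.3% in GFPmed and 60.5 ± 0.9% in GFPhi. Klf10, a TGF-beta inducible member, held 25.3 ± 2.0% in GFPlo, beside Klf2, and 16.3 ± 0.5% in GFPhi. Klf6 held 13.5 ± 1.9% in GFPlo and 4.18 ± 0.28% in GFPhi. The shares were not tested.

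**Figure D4:**
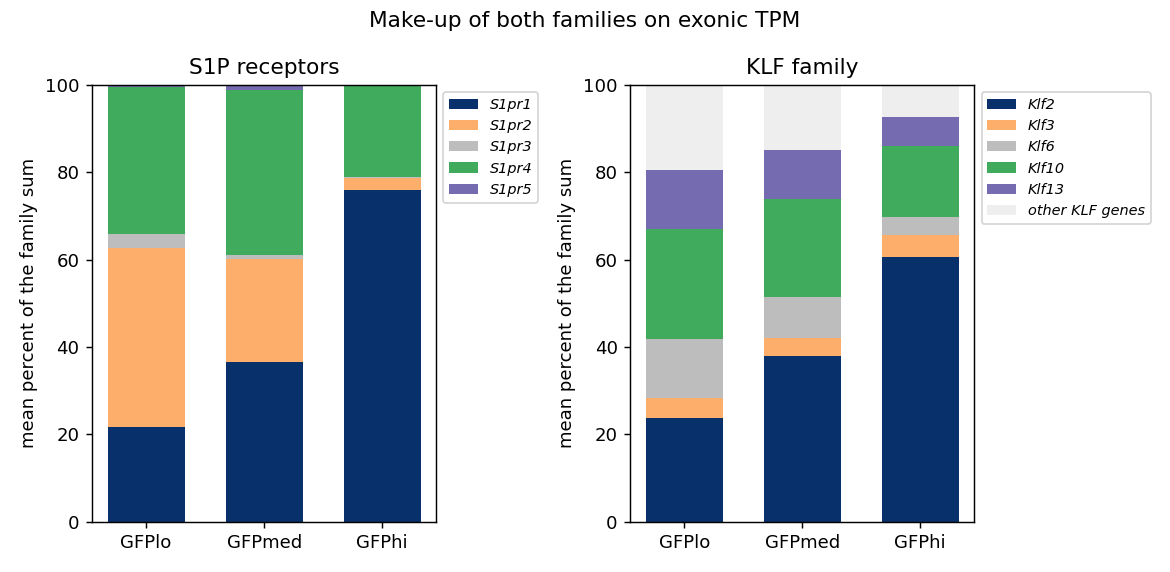
Mean share of each gene in the summed exonic TPM of the S1P receptors (left) and of the KLF family (right), as stacked bars to 100% for GFPlo, GFPmed and GFPhi (3 samples each). S1pr1 grows from 21.6% to 75.9% of the receptor sum and Klf2 from 23.8% to 60.5% of the KLF sum.

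Other genes of the pathway were described by list. In the KLF family, 12 of 17 genes were tested and only Klf2 and Klf3 were called from GFPlo to GFPhi, both higher; the median log2 fold change was -0.02, against -0.09 over all genes. Klf10 was at 117 to 146 TPM in GFPlo and 191 to 221 TPM in GFPhi, or 0.63 ± 0.10 on the log2 scale (limma, adjusted p = 0.0111), under the fold limit. Klf13 had 0.24 ± 0.14 (adjusted p = 0.538).

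Enzymes and transporters that make, export and break down S1P gave 0 of 9 tested genes called in limma in each comparison, 0 at an unadjusted p under 0.05 and 0 in voom, and the median log2 fold change from GFPlo to GFPhi was -0.07. Sphk2, a sphingosine kinase, had 62.5 to 68.5 TPM in GFPlo and 51.0 to 78.2 TPM in GFPhi (log2 fold change -0.07 ± 0.15, 95% confidence interval -0.42 to 0.27). Sgpl1, the S1P lyase, differed by -0.16 ± 0.10 (adjusted p = 0.601). The S1P exporter Spns2 was under the filter.

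Of the regulators placed upstream of Klf2 and S1pr1, 0 of 13 tested were called in any comparison by limma or voom, while 5 had an unadjusted p under 0.05 between GFPlo and GFPhi. Stat3 had 57.6 to 63.4 TPM in GFPlo and 93.0 to 115 TPM in GFPhi, 0.73 ± 0.10 on the log2 scale (limma, adjusted p = 0.00647). Mapk7, which encodes ERK5, the kinase of the MEF2 route to Klf2, had 203 to 239 TPM in GFPlo and 129 to 163 TPM in GFPhi (-0.56 ± 0.10, adjusted p = 0.0205). Both passed the p threshold and not the fold limit. Mef2d differed by -0.20 ± 0.10 (adjusted p = 0.453). Foxo1, a factor upstream of Klf2 that was singled out after its values were seen, had 11.5 to 13.9 TPM in GFPlo, 12.6 to 15.7 TPM in GFPmed and 23.3 to 25.5 TPM in GFPhi, 0.90 ± 0.13 from GFPlo to GFPhi (adjusted p = 0.00815).

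Trafficking genes linked to KLF2 or FOXO1 did not move as 1 group. Of 7 tested, S1pr1 and Itgb7 were called higher and Il7r lower from GFPlo to GFPhi, with a median log2 fold change of -0.12. Itgb7, the beta chain of a gut homing integrin, had 118 to 144 TPM in GFPlo, 171 to 204 TPM in GFPmed and 293 to 321 TPM in GFPhi (1.22 ± 0.09, adjusted p = 0.000557). Il7r, the IL-7 receptor alpha chain, had 182 to 218 TPM in GFPlo and 52.9 to 59.7 TPM in GFPhi (-1.81 ± 0.09, adjusted p = 6.49e-05). Ccr7, the receptor that guides cells to the medulla, differed by -0.14 ± 0.06 (adjusted p = 0.38).

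Cd69, whose product holds S1PR1 inside the cell, had 324, 380 and 420 TPM in GFPlo, 354, 346 and 396 TPM in GFPmed and 184, 240 and 223 TPM in GFPhi. The GFPhi samples were below all others, while GFPlo and GFPmed overlapped. The log2 fold change from GFPlo to GFPhi was -0.79 ± 0.13 (limma, adjusted p = 0.0142), short of the fold limit, in cells that were all sorted as CD69+.

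Among 25 tested genes of S1P receptor signalling and thymic retention, 1 was called higher and 2 lower from GFPlo to GFPhi, with a median log2 fold change of -0.08. Rgs16, a regulator that shortens G protein signalling, had 1.56 to 4.05 TPM in GFPlo, 2.64 to 3.28 TPM in GFPmed and 43.3 to 52.0 TPM in GFPhi (3.60 ± 0.26, adjusted p = 0.000431). The chemokine receptor Ccr9 had 292 to 328 TPM in GFPlo and 59.0 to 62.1 TPM in GFPhi (-2.35 ± 0.06, adjusted p = 6.59e-06). Ccr4, a chemokine receptor of cells entering the medulla, had 191 to 217 TPM and 56.3 to 67.6 TPM (-1.74 ± 0.09, adjusted p = 9.21e-05). Arhgef1 (0.54 ± 0.11), Rac2 (0.46 ± 0.07) and Coro1a (-0.36 ± 0.07), of the cytoskeletal machinery of migration, passed the p threshold and not the fold limit, with adjusted p of 0.0326, 0.0145 and 0.0337. Rgs16, Ccr9 and Ccr4 were also the genes of this list called from GFPmed to GFPhi, and 0 of the 25 were called from GFPlo to GFPmed in limma or voom, where 3 had an unadjusted p under 0.05.

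**Figure D5:**
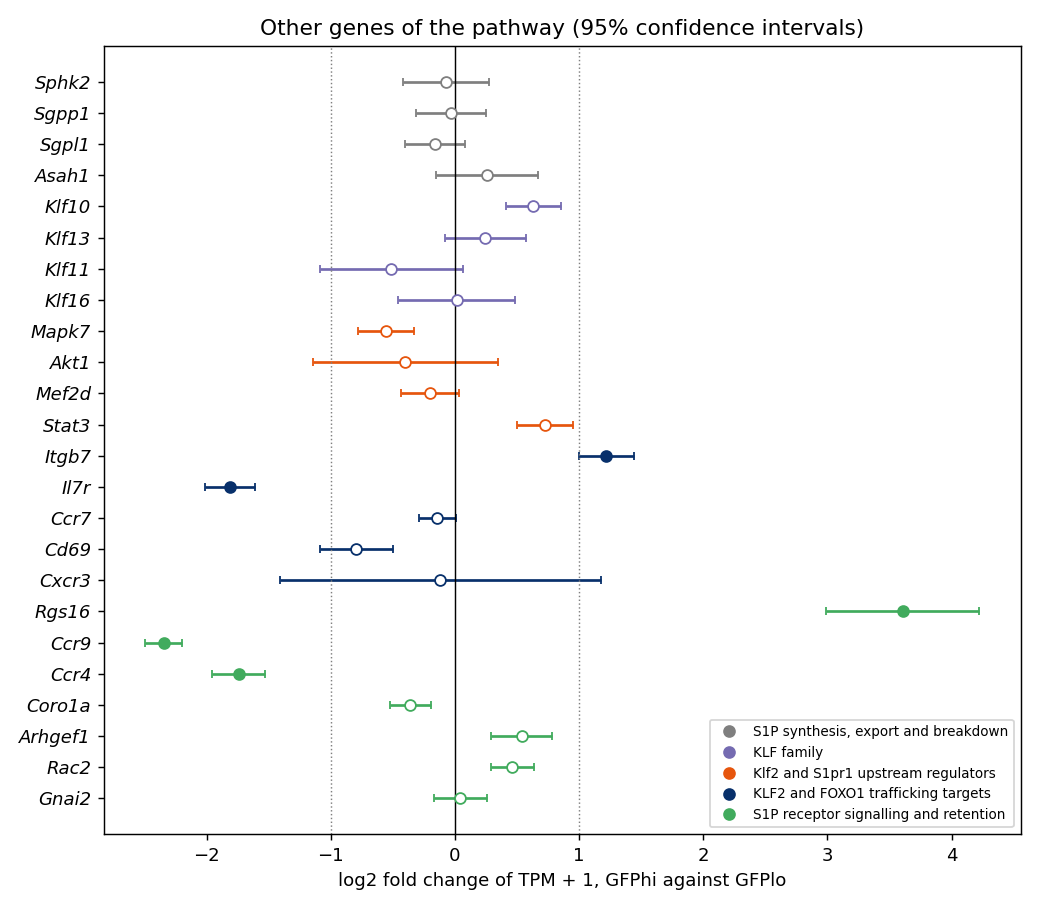
Log2 fold change of TPM + 1 from GFPlo to GFPhi for 24 other genes of the pathway, coloured by list. Points are limma estimates from 9 samples with 95% confidence intervals, filled where called, and dotted lines mark the fold limit of 1 in each direction. Rgs16 and Itgb7 are called higher, and Ccr9, Il7r and Ccr4 lower.

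Markers of other states also differed between the groups. Of 20 genes that rise as single-positive thymocytes mature, which include Klf2 and S1pr1, 7 were called higher and Il7r lower from GFPlo to GFPhi, among them H2-K1, a class I molecule (1.52 ± 0.08, adjusted p = 0.000122). The summed level of that list was 6748 to 7392 TPM in GFPlo and 13097 to 13863 TPM in GFPhi. Of 11 tested genes that fall with maturation, 4 were called lower, Ccr4, Ccr9, Dntt and Satb1. Cd24a, whose product was part of the gate, had 91.2 to 112 TPM in GFPlo and 81.8 to 112 TPM in GFPhi.

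Of 10 regulatory T cell markers, 7 were called higher from GFPlo to GFPhi. The sum of all 10 was 349 to 368 TPM in GFPlo, 686 to 800 TPM in GFPmed and 1615 to 1752 TPM in GFPhi. Single genes weighed heavily in this sum of deposited TPM. Tnfrsf18 was its largest gene in GFPlo and GFPmed, at means of 175 and 357 TPM. In GFPhi the largest was Tnfrsf4, at 718 TPM of a mean sum of 1666 TPM. Foxp3, the defining factor, had 6.57 to 7.04 TPM in GFPlo, 5.69 to 7.27 TPM in GFPmed and 14.0 to 18.4 TPM in GFPhi. From GFPlo to GFPmed, 8 of the 10 had positive log2 fold changes, with a median of 0.65, and Tnfrsf18 and Tnfrsf4, receptors of the TNF family, were called higher. In that step the samples of Foxp3, Capg and Lrrc32 overlapped, and Foxp3 (-0.09) and Lrrc32 (-0.08) had negative log2 fold changes. Every GFPmed sample was above every GFPlo sample for Tnfrsf18, Tnfrsf4, Gpr83, Ctla4, Il2ra, Ikzf2 and Ikzf4, as for S1pr1. Of these markers, limma called only Tnfrsf18 and Tnfrsf4. The share of all genes that separate in this step was not counted. The part of regulatory T cells in the differences of Klf2, Klf3, S1pr1 and S1pr4 was not tested.

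Endothelial cells also use KLF2 and S1PR1, and their 8 markers summed to 29.0 to 36.4 TPM in GFPlo and 28.9 to 34.3 TPM in GFPhi, of which Pecam1, also made by leukocytes, was 22.9 to 28.0 TPM in every sample. Cdh5, Tek, Emcn and Plvap had means under 1 TPM in each group. Kdr and Esam, of the same list, had means of 2.36 and 3.03 TPM over the 9 samples and were not called. Epcam, at 2.79 TPM in GFPlo and 8.78 TPM in GFPhi on average, was called higher among thymic epithelial markers, while Foxn1 and Aire were under 1 TPM in each group. Lgals1 was the only gene called of 9 memory T cell markers and Sox13, which was lower, of 6 innate-like and gamma delta T cell markers. Limma and voom called 0 of 6 B cell and 0 of 7 myeloid and dendritic cell markers, with 1 of each at an unadjusted p under 0.05.

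By likeness of log2(TPM + 1) over the 9 samples, among 17362 genes tested with a mean TPM of at least 5, the genes closest to S1pr1 were Ctla4 (r = 0.997), Stap1 (r = 0.996), Tnfrsf1b (r = 0.996), Smc4 (r = 0.995) and Il2rb (r = 0.995). Those closest to Klf2 were Lad1 (r = 0.996), Tnfrsf9 (r = 0.996), Rasgrp2 (r = 0.995), Shisa5 (r = 0.995) and Btg1 (r = 0.995). S1pr1 and Klf2 had r = 0.981 with each other, and S1pr4 had r = 0.994 with Klf2 and r = 0.985 with S1pr1. The 9 points share 3 group means, so these coefficients mostly rank how the step between groups is divided. Ctla4, a coinhibitory receptor, went from a mean of 1.18 TPM in GFPlo to 2.74 in GFPmed and 13.2 in GFPhi. Rasgrp2, an activator of the integrin regulator Rap1, went from 99.3 to 140 and 220 TPM, and Btg1, an antiproliferative factor, from 635 to 879 and 1447 TPM.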

How the data were processed

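SP4 thymocytes sorted by GFP were profiled by bulk SMART-seq, 3 samples each of GFPlo, GFPmed and GFPhi. The authors ran adapter trimming and aligned with STAR 2.7.11b to GRCm38 (versions per the submitters' processing notes), dropped identical read pairs, took gene counts from the aligner and deposited them as TPM. For each group the authors also give the mean signal, that is, reads divided by their DESeq2 1.34.0 size factors and averaged. The table further holds their fold changes, adjusted p-values and call columns, none of which was used, and 0 sample columns were left unused.

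TPM and group means together gave the whole reads of 41578 genes (100% of values within 0.05 of a whole number); 400 genes were not solved. The length behind the TPM of each of the 6 genes equalled its mean transcript span, so exonic TPM were recomputed from reads with GENCODE annotation of GRCm38, an earlier release than the authors'. Reads were amplified without molecular identifiers, so read numbers understate the error.

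Genes that reached 1 TPM in 3 or more samples (30693 genes) were kept, and their log2(TPM + 1) was fitted with limma 3.58.1 in R 4.3.3, as 1 model over 9 samples with eBayes and a trend, and p-values were adjusted by Benjamini-Hochberg over all genes tested. Fold changes on this scale understate those of low genes. The fit was tested on simulated data. Trends and the ratio were tested by exact permutation in Python 3.11.15. Replicates are labelled biological. The members and gene lists were chosen with earlier results of these data known. Named are the 6 genes, list genes called in any comparison with at most 4 more per list by mean TPM, and the 5 genes closest to S1pr1 and to Klf2. A gene that this rule also names is not reported here. Alternatives were a lower pseudocount (0.1), every gene kept or a floor of 5 TPM, scaling by median of ratios or by quantiles, exonic length, 2 groups per fit, no eBayes trend, a replicate block, no fold limit, limma-voom on reads with either library scaling, each sample left out, and, chosen after seeing the data, all samples of replicate 1 left out.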

Additional observations from a re-analysis of the deposited data

How the results depend on the processing

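From GFPlo to GFPmed, the 2 calls became 0 with no filter, median-of-ratios scaling, a fit of 2 groups only, no eBayes trend, the replicate block and without the 3 samples of replicate 1, and ran from 0 to 1 when 1 sample was left out. From GFPmed to GFPhi, 4 calls became 2 without the 3 samples of replicate 1. Against the midpoint, 0 calls became 1 (S1pr1) with exonic length and both voom fits. The cause was not tested. The 4 calls from GFPlo to GFPhi held in every alternative run, and the ratio of S1pr1 to Klf2 kept its direction and its side of the threshold.

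Same-numbered samples of different groups deviated together with correlations of 0.0122 to 0.225 in 9 pairs (mean 0.0609, against -0.0305 in 18 differently numbered pairs), and 6 of 9 samples correlated best with their own number, a hint of pairing from the data. Of the 9 pairs, 1 was above 0.1, the level each had to pass for taking the numbers as pairs, so the fit without the block was kept. With the replicate block all-gene calls from GFPlo to GFPmed went from 17 higher and 1 lower to 5 and 0, the members called were 4, 0 and 4 in the 3 comparisons of groups, all 6 exact trends stayed under 0.05 and the ratio difference was 2.26 (exact permutation p = 0.0185).

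Calls over all genes moved by more than 1.5 times as follows. From GFPlo to GFPhi, 511 became 1194 with no fold limit and 204 without the 3 samples of replicate 1. From GFPmed to GFPhi, 212 became 102 with median-of-ratios scaling, 463 with no fold limit, 337 and 348 in voom with library totals and with size factors, and 21 without the 3 samples of replicate 1, and 115 to 132 without GFPmed replicate 1, 2 or 3 or GFPhi replicate 3. From GFPlo to GFPmed, 18 became 29 with a pseudocount of 0.1, 5 with median-of-ratios scaling or the replicate block, 8 with no eBayes trend, 0 without the 3 samples of replicate 1, and 2 to 9 without GFPlo replicate 2 or 3 or any GFPmed sample. Against the midpoint, 6 became 15 with a pseudocount of 0.1, 12 with quantile normalization, 20 with exonic length, 104 and 14 in voom, 0 with the block or without replicate 1, and 0 to 1 without any GFPmed sample or GFPhi replicate 3. No scaling moved the median of all genes by more than 0.08.

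Log2 fold changes near 0 turned sign in genes that were not called. Cxcr3 was 0.0397 and Gnai2 -0.0388 with quantile normalization, Sgpp1 was 0.0529 with median-of-ratios scaling in limma and 0.0487 in voom, and Sphk2 was 0.0108 with median-of-ratios scaling. Without the 3 samples of replicate 1, Klf16 was -0.236, Sgpp1 0.00573 and Sphk2 0.0357. With 1 sample left out, Cxcr3 ran from -0.495 to 0.305, Gnai2 from -0.0495 to 0.109, Klf16 from -0.128 to 0.111, Sgpp1 from -0.138 to 0.0697, Sphk2 from -0.248 to 0.0561 and Klf6 against the midpoint from -0.0146 to 0.0946.

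S1pr1 in GFPlo, at 48 to 57 reads, limits the precision of its fold change and of its ratio to Klf2.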
